A study of Rattus norvegicus with 2 samples.

Results

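The 10 genes described here encode enzymes that make leukotrienes and prostaglandins: Pla2g4a, Alox5, Alox5ap, Lta4h, Mgst2, Ptgs1, Ptgs2, Hpgds, Ptges2 and Ptges3. They were chosen by name for their function, with earlier results of these data known. All 10 were found among the 14913 distinct gene names of the deposited table. The cells were RBL-2H3, a rat basophilic leukemia line used as a model of mast cells and basophils. Poly(A)-selected RNA was sequenced from 1 library of wild-type cells without treatment and 1 library of wild-type cells incubated with IgE, and the comparison asks what follows when IgE engages its high-affinity receptor. The IgE dose, the incubation time and any use of an antigen to crosslink the receptor are not stated in the labels. The line is a single tumour-derived line, and each condition is 1 library, so no replicate backs any difference given below.

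Mast cells and basophils answer receptor crosslinking by releasing stored granules and by making lipid mediators anew. Cytosolic phospholipase A2 frees arachidonic acid from membranes, and the acid then enters either of the branches compared here. In the lipoxygenase branch, 5-lipoxygenase and its membrane helper FLAP make leukotriene A4, which is hydrolysed to leukotriene B4 or joined to glutathione to give leukotriene C4. In the cyclooxygenase branch, the cyclooxygenases make prostaglandin H2, which terminal synthases turn into prostaglandin D2, the main prostanoid of mast cells, or prostaglandin E2. Much of the acute control of these enzymes acts on the proteins, through calcium, phosphorylation and movement to membranes, which transcript counts do not measure.

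The libraries held 20917968 counted reads (untreated) and 26268330 (IgE). Levels are given as CPM (read counts normalised to library size), and differences as the log2 fold of the IgE over the untreated library with a 95% counting interval. Those intervals cover counting error only and say nothing of the spread between cultures. Of all names, 12102 had at least 20 reads over both libraries and were compared. All 10 markers fixed for mast cells and basophils were present, among them Ms4a2, the beta chain of the IgE receptor, at 1252 CPM untreated and 1375 CPM with IgE. Of the 10, 7 lay above a log2 fold of 0 and 3 below, against 6181 and 5921 of all compared names. Those below 0 included Kit (-0.04, -0.06 to -0.02) and Gata2 (-0.11, -0.12 to -0.09). Of 6 marker lists for other cells, 17 of 48 genes had a row. The platelet list (5 of 7 genes with a row) summed to 171.5 and 216.3 CPM, mostly Pf4, and the fibroblast and epithelial list (2 of 10) to 281.6 and 252.8 CPM, nearly all Col3a1. The lymphocyte list (3 of 9) summed to 15.8 and 16.8 CPM, the neutrophil list (2 of 7) to 1.24 and 1.49 CPM, and the eosinophil list (2 of 6) to 0.762 and 0.802 CPM. The macrophage list (3 of 9) summed to 5.48 and 3.21 CPM, with all 3 genes lower in the IgE library. Of these, Cd68 had 43 and 40 reads (log2 fold -0.42, -1.08 to 0.23) and Csf1r 46 and 37 (-0.63, -1.30 to 0.02), with intervals that included 0. Msr1, a scavenger receptor of the same list, had 26 and 7 reads (-2.13, -3.66 to -0.97). The eosinophil marker Siglec5 had 6 and 17 (1.13, -0.23 to 2.81). Il5ra, of the same list, went the other way with 10 and 4 (-1.52, -3.77 to 0.15), and both intervals included 0. Camp, a neutrophil marker, had 0 reads in both, and Gp9, a platelet marker, 0 in the IgE library. The part of these genes in the results below was not tested.

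Promoter windows are shown for the cyclooxygenase genes and for Ptges3, because Ptgs2 and Ptges3 were the members that lay farthest above 0 on many reads while Ptgs1 did not. Each run is the 250 bases before the annotated start in RefSeq, assembly GRCr8, written 5′ to 3′ on the strand of the gene, which is the plus strand for all 3. Capitals mark every match, on either strand, to the motifs searched.
Ptgs2: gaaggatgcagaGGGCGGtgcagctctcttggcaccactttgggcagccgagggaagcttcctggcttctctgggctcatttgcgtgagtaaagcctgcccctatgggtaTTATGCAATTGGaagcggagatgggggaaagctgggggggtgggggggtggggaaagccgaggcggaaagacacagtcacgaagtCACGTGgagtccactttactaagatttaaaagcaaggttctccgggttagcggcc
Ptgs1: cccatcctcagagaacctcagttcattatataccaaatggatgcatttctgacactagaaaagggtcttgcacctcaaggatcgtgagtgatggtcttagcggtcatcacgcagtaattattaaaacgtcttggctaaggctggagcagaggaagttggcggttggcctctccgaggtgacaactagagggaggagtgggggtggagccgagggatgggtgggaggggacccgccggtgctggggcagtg
Ptges3: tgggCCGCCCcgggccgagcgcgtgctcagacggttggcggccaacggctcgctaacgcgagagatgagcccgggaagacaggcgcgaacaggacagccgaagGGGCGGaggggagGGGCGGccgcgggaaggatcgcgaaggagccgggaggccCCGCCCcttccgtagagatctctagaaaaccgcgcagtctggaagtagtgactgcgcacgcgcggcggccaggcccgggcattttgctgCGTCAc
These windows are chr13:64713813-64714062 for Ptgs2, chr3:39981169-39981418 for Ptgs1 and chr7:1075059-1075308 for Ptges3. Windows for 6 of the 10 genes were matched by symbol (also Pla2g4a, Alox5 and Lta4h). No window was at hand for Alox5ap, Mgst2, Hpgds and Ptges2.

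The Ptgs2 window held a C/EBP-type match (TTNNGCAA) from position -140 to -133, which overlapped an inverted CCAAT box (CCAAT) by a base. It also held an E-box (CACGTG) from -55 to -50 and a GC box (GGGCGG) from -238 to -233. Of 33469 rat promoter windows of the same length, 9.22% held the C/EBP-type letters, 5.59% the E-box, 30.5% the GC box and 34.0% the CCAAT box. The Ptges3 window held 4 GC boxes and, from -6 to -2, a cyclic AMP element core (TGACG, present in 18.2% of windows). It was 70.4% G and C, against 57.2% for Ptgs2, 54.4% for Ptgs1 and a median of 51.2% over all windows. The Ptgs1 window held no match to any motif searched. The other motifs were a TATA box (TATAAA, 12.9% of windows), an AP-1 site (TGANTCA, 6.34%) and an NFAT core (GGAAAA, 21.6%). None of these 3 was matched in the 3 windows printed. Of the windows not printed, that of Alox5 held 1 GC box (62.8% G and C) and that of Lta4h 1 GC box and 2 CCAAT boxes (57.2%). The Pla2g4a window held 1 TATA box match, on the opposite strand (42.4%). GC boxes were matched for Alox5 and Lta4h as well as for Ptgs2 and Ptges3, and CCAAT boxes for Lta4h as well as for Ptgs2. Any bearing of the matches on the folds was not tested. A match describes letters only, and its absence says nothing of a factor.

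None of the 10 enzymes differed by 2-fold between the libraries, where 2.63% of all compared names did, and none differed by 1.5-fold, where 7.19% did. All 10 had at least 20 reads, 5 lay above 0 and 5 below, and the median log2 fold was -0.0076 against 0.0049 over all names compared. Ptgs2 and Ptges3 had counting intervals wholly above 0, Pla2g4a and Hpgds wholly below it, and the intervals of the other 6 included 0. Intervals that leave out 0 were common: 38.5% of all compared names had one, and 54.3% of the 5079 names with 2000 or more reads, so that 4 of 10 is close to the share of all names.

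**Figure D1:**
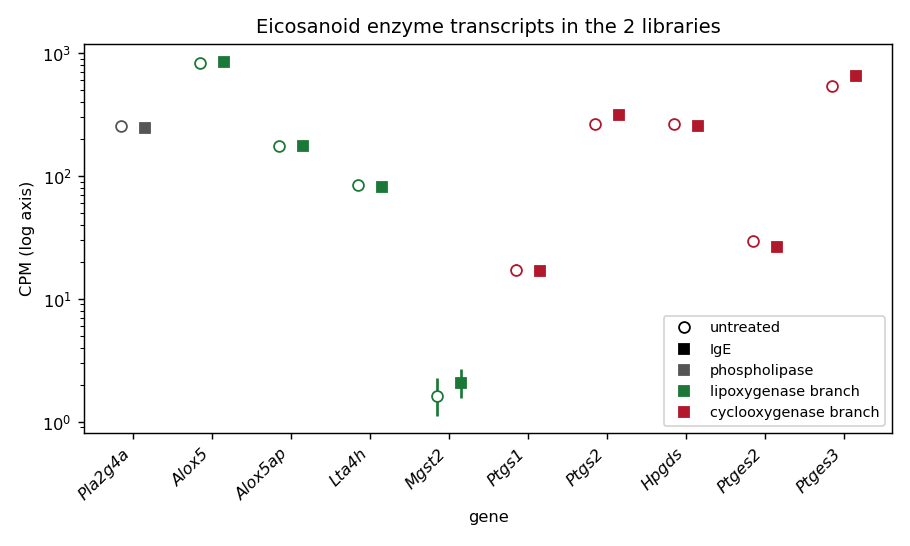
CPM of each enzyme gene (log axis) in the untreated (open circles) and IgE (filled squares) library, with bars for the 95% Poisson interval of the count. Heights are not corrected for transcript length and serve to compare the libraries within a gene. Ptgs2 and Ptges3 are higher in the IgE library, and only Mgst2 has wide bars.

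Pla2g4a encodes cytosolic phospholipase A2 alpha, which supplies arachidonic acid to both branches. It had 5392 reads untreated and 6460 with IgE, or 256.9 and 246.7 CPM. The IgE value was lower by a log2 fold of -0.06 (-0.11 to -0.01), a difference of -3.99%. Pla2g4a and Ptgs2 are next to each other in the protein-coding gene order of the RefSeq table. Their log2 folds differed by 0.32 (0.25 to 0.39) with Ptgs2 the higher, so these neighbours differed in their folds by more than counting error. Such a difference between the folds of 2 genes does not depend on how the libraries are scaled.

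In the lipoxygenase branch, the enzymes with many reads were level. Alox5, which encodes 5-lipoxygenase, had 17333 and 21950 reads, or 826.0 and 838.3 CPM. Its log2 fold was 0.02 (-0.01 to 0.05), so that counting error leaves room for a rise or a fall of only a few percent between these libraries. Alox5ap, which encodes FLAP, the protein that presents arachidonic acid to 5-lipoxygenase, stood at 174.0 and 175.6 CPM (3651 and 4599 reads), a log2 fold of 0.01 (-0.05 to 0.08). The folds of Alox5 and its helper differed by 0.01 (-0.06 to 0.08). Lta4h, whose product hydrolyses leukotriene A4 to leukotriene B4, stood at 84.6 and 81.2 CPM (1776 and 2126 reads), a log2 fold of -0.06 (-0.15 to 0.03).

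Of the enzymes that join glutathione to leukotriene A4, Mgst2 and Ltc4s were thinly counted. Mgst2, a microsomal glutathione transferase that can make leukotriene C4, had 34 and 54 reads, or 1.62 and 2.06 CPM. Its log2 fold of 0.34 was the highest of the 10, but its interval ran from -0.30 to 1.01, so that neither a fall nor a 2-fold rise was outside it. Ltc4s, the dedicated leukotriene C4 synthase and no member of the 10, had 0 reads untreated and 4 with IgE. A count of 0 allows up to 3 reads, which is 0.143 CPM in the untreated library, and the IgE library stood at 0.153 CPM. The log2 fold of Ltc4s, 3.04, had an interval from -0.92 with no upper limit, which included 0, so these few reads did not settle a difference. Mgst3, a related microsomal transferase, stood at 9.34 and 9.70 CPM (196 and 254 reads, 0.05, -0.22 to 0.33).

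In the cyclooxygenase branch, the cyclooxygenase genes parted. Ptgs2, which encodes the inducible cyclooxygenase COX-2, had 5526 reads untreated and 8260 with IgE, or 263.3 and 315.4 CPM. It was higher with IgE by a log2 fold of 0.26 (0.21 to 0.31), or 19.8%. Ptgs1, which encodes the constitutive COX-1, had 363 and 444 reads, or 17.3 and 17.0 CPM, a log2 fold of -0.03 (-0.23 to 0.18). The fold of Ptgs2 was above that of Ptgs1 by 0.29 (0.08 to 0.50).

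Among the terminal synthases, Hpgds and Ptges2 did not share the direction of Ptgs2. Hpgds, the hematopoietic prostaglandin D2 synthase, stood at 264.2 and 254.0 CPM (5545 and 6652 reads), a log2 fold of -0.06 (-0.11 to -0.01). Its fold lay below that of Ptgs2, by a difference of 0.32 (0.25 to 0.39) between the genes, and was 0.0019 (-0.07 to 0.08) above that of Pla2g4a. Ptges2, a membrane-associated prostaglandin E synthase, stood at 29.3 and 26.4 CPM (615 and 691 reads), a log2 fold of -0.15 (-0.31 to 0.01), the lowest of the 10. Ptges, Ptgds, Ptgis and Tbxas1, the genes of other prostanoid synthases, had no row under these names and could not be compared.

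Ptges3 was the other enzyme gene that was higher with IgE beyond its counting error. It encodes cytosolic prostaglandin E synthase, a protein better known as p23, a co-chaperone of Hsp90. It had 11296 and 16956 reads, or 538.3 and 647.6 CPM, a log2 fold of 0.27 (0.23 to 0.30) or 20.3%. Its fold and that of Ptgs2 differed by 0.01 (-0.05 to 0.07), while it exceeded that of Ptges2 by 0.42 (0.25 to 0.58). RefSeq lists related genes, Ptges3l and Ptges3l1, and a pseudogene, Ptges3-ps1. Ptges3l had 57 and 76 reads and Ptges3l1 43 and 64, so that reads named for these relatives were few, but how reads shared with the pseudogene were assigned was not stated. A noncoding RNA gene, Ptgs2os, lies between Pla2g4a and Ptgs2 in the RefSeq gene order and was not analysed here.

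**Figure D2:**
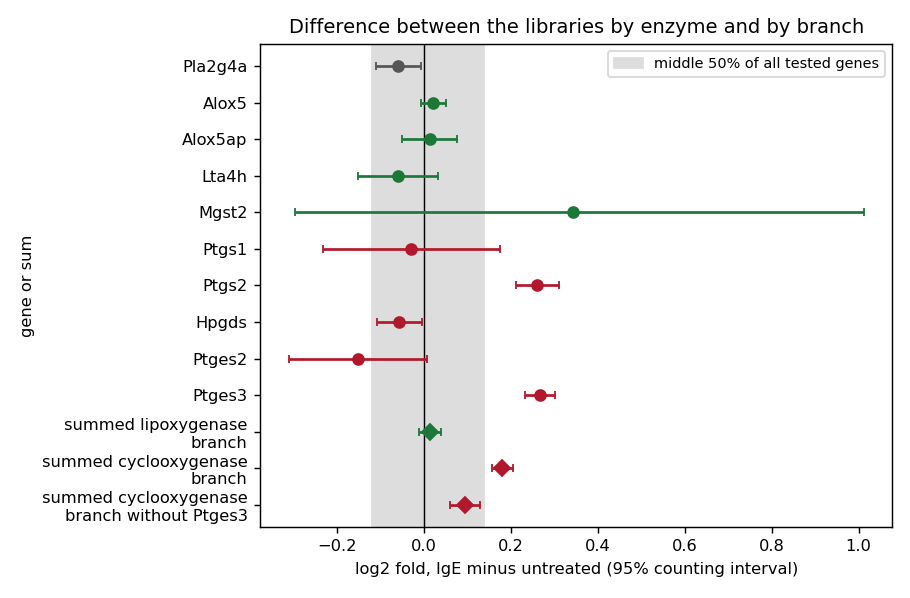
Log2 fold of the IgE over the untreated library for each enzyme (circles) and for the summed reads of each branch (diamonds), with 95% counting intervals; the grey band is the quartile range of all 12102 names compared, from -0.12 to 0.14. Ptgs2, Ptges3 and, with a wide interval, Mgst2 lie to the right of the band, Ptges2 lies to its left, and the other 6 enzymes lie inside it.

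The folds of Ptgs2 and Ptges3 were larger than their counting error but lay inside the range of other well-counted genes. Among the 5079 names with 2000 or more reads, the log2 folds had an SD of 0.14, and none reached 2-fold. Of these, 221 had a higher log2 fold than Ptgs2 (4.35%) and 204 a higher one than Ptges3 (4.02%), against 2122 (41.8%) for Alox5 and 3395 (66.8%) for Hpgds. Some other groups of transcripts also stood higher with IgE. The 5079 names together did not, with a median log2 fold of -0.0050, 2450 above 0 and 2629 below. The 68 cytosolic ribosomal protein names had a median log2 fold of 0.29, with 67 above 0, and the 13 protein-coding mitochondrial transcripts a median of 0.16, with all 13 above 0. What part such group shifts had in the values of Ptgs2 and Ptges3 was not tested.

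**Figure D3:**
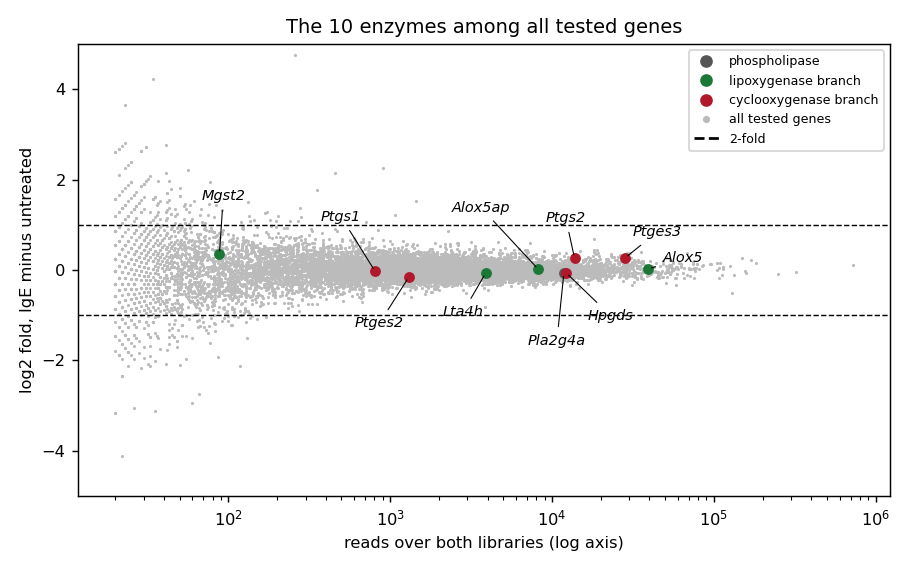
Log2 fold (IgE over untreated) of all 12102 names compared (grey) against their reads over both libraries (log axis), with the 10 enzymes coloured by branch and dashed lines at 2-fold. The enzymes lie between the lines, and Ptgs2 and Ptges3 lie toward the upper side of the grey points at their read counts.

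Set against each other, the branches differed in their sums toward the cyclooxygenase side. Their medians lay slightly the other way, on genes whose intervals included 0. The 4 lipoxygenase branch genes summed to 1086 CPM untreated and 1097 with IgE, a log2 fold of 0.01 (-0.01 to 0.04). The 5 cyclooxygenase branch genes summed to 1112 and 1260 CPM, a log2 fold of 0.18 (0.16 to 0.20). The difference between the branches was 0.17 (0.13 to 0.20), toward the cyclooxygenase branch in the IgE library. A sum gives weight to the genes with most reads, here Alox5 on the lipoxygenase side and Ptges3, Ptgs2 and Hpgds on the other.

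The contrast rested on Ptgs2 and Ptges3. Without Ptges3 it was 0.08 (0.04 to 0.12), and with Ptgs1, Ptgs2 and Hpgds alone, the genes of prostaglandin H2 and D2 synthesis, 0.09 (0.05 to 0.13). Without both Ptgs2 and Ptges3, a choice made after the values were seen, it turned to -0.08 (-0.13 to -0.02). The median member fold was 0.02 in the lipoxygenase and -0.03 in the cyclooxygenase branch, so by medians the difference was -0.05, also the other way. The middle gene was Ptgs1 (-0.23 to 0.18) in the cyclooxygenase branch, and Alox5 and Alox5ap were the middle genes of the other. Their intervals all included 0, so the medians did not settle a direction. Without Alox5 the lipoxygenase sum was again level, at -0.01 (-0.06 to 0.04), and the contrast was 0.19 (0.13 to 0.24).

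Among the other pathway genes with enough reads to be compared, none differed by 2-fold. Of 111 further names in 7 lists, older names of some genes included, 61 had a row and 53 had at least 20 reads. Of these 53, 30 lay above 0 and 23 below, with a median of 0.01. None passed 2-fold, against 2.63% of all compared names, and 2 (3.77%) passed 1.5-fold, against 7.19%, both on few reads. Those were Ptgdr2, the prostaglandin D2 receptor also called CRTH2, with 11 and 25 reads (0.84, -0.21 to 2.04), and Alox15, a 15-lipoxygenase, with 24 and 47 (0.64, -0.09 to 1.42). Both intervals included 0.

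Upstream of the branches, the genes that supply arachidonic acid went both ways. The 12 genes of fatty acid supply and membrane remodelling had a median of -0.03. They ran from Fads2, a desaturase on the path to arachidonic acid, at 389.0 and 332.2 CPM (-0.23, -0.27 to -0.18), to Elovl5, an elongase on the same path, at 204.3 and 230.0 CPM (0.17, 0.11 to 0.23). Acsl4, which activates arachidonic acid for storage in phospholipids, stood at 698.6 and 718.8 CPM (0.04, 0.01 to 0.07). The 9 genes of other phospholipases and lipid hydrolases had a median of 0.0045, from Pla2g12a (-0.14, -0.34 to 0.05) to the monoglyceride lipase gene Mgll (0.42, -0.05 to 0.89). Under the minimum of reads, the phospholipase gene Pla2g4f had 13 and 5 reads (-1.59, -3.54 to -0.12) and Fads1, a desaturase gene, 7 and 4 (-1.03, -3.35 to 0.85).

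The 9 regulators of phospholipase A2 and 5-lipoxygenase had a median of 0.04. Gpx1, a glutathione peroxidase that reduces lipid hydroperoxides after their release, was highest, at 121.3 and 151.6 CPM (0.32, 0.25 to 0.39), and Mknk1, a kinase that can phosphorylate cytosolic phospholipase A2, lowest (-0.11, -0.19 to -0.03). Anxa1, which encodes the phospholipase inhibitor annexin A1, stood at 387.1 and 398.0 CPM (0.04, -0.0020 to 0.08). Cotl1, a protein that binds 5-lipoxygenase, stood at 316.6 and 306.0 CPM (-0.05, -0.10 to -0.0019). Gpx4, the glutathione peroxidase that reduces hydroperoxides within membranes, stood at 85.6 and 96.3 CPM (0.17, 0.08 to 0.26).

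Downstream of prostaglandin H2, 4 of the 12 names of other terminal prostanoid enzymes had a row, and 3 were compared. These 3 lay above 0, with a median of 0.34, where 6181 of all 12102 names compared lay above 0. Cbr1, a carbonyl reductase that can turn prostaglandin E2 into F2 alpha, stood at 22.0 and 30.3 CPM (461 and 793 reads, 0.46, 0.30 to 0.63), and has near relatives in the genome whose reads may be shared. Akr1b1, an aldose reductase with prostaglandin F synthase activity, stood at 20.3 and 25.6 CPM (0.34, 0.16 to 0.51). Cbr3, the lowest of the list, was level at 25.5 and 25.7 CPM (0.01, -0.16 to 0.18). Of the 4 other lipoxygenases and glutathione transferases compared, Alox15 was highest and Mgst1 lowest (-0.10, -0.64 to 0.45), with a median of 0.08. Alox12, a 12-lipoxygenase, had 23 and 31 reads (0.11, -0.71 to 0.96).

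Export, breakdown and receptor genes showed no common direction. The 10 export and breakdown genes had a median of -0.01, from Ptgr1, a prostaglandin reductase, with 17 and 18 reads (-0.23, -1.28 to 0.81), to Cyp4f5, a cytochrome of a family that inactivates leukotriene B4, with 84 and 151 reads (0.52, 0.13 to 0.93). Abcc1, the exporter of leukotriene C4, stood at 118.5 and 107.7 CPM (-0.14, -0.22 to -0.06). The 6 receptor genes had a median of 0.03, with Ptger1, a prostaglandin E2 receptor, lowest at 69.0 and 57.0 CPM (-0.27, -0.38 to -0.17). The cysteinyl leukotriene receptors Cysltr1 (284 and 350 reads, -0.02, -0.25 to 0.21) and Cysltr2 (169 and 223 reads, 0.08, -0.21 to 0.38) had intervals that included 0. Acsl4, Anxa1, Cotl1, Gpx4, Abcc1, Mgst3, Pla2g4f, Fads1, the marker genes and these 2 receptors were named after their values were seen.

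**Figure D4:**
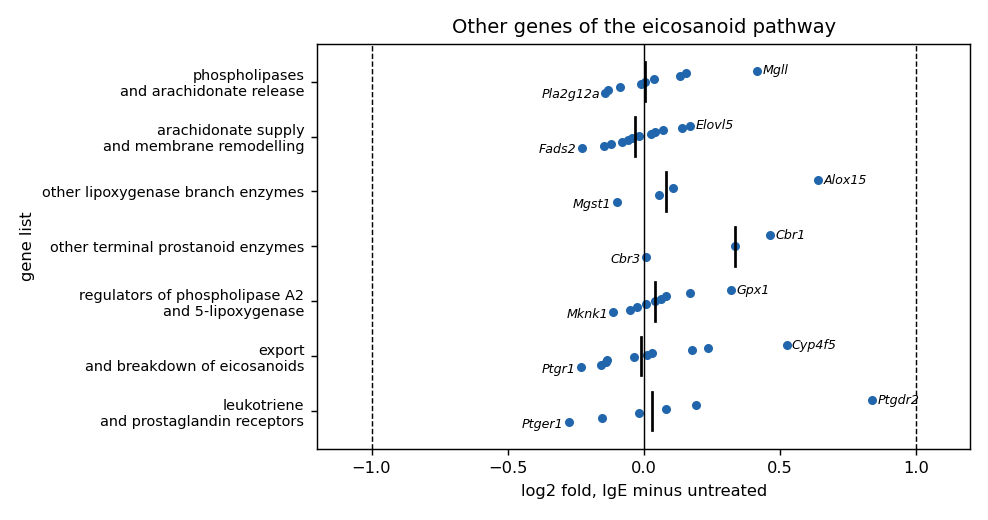
Log2 fold (IgE over untreated) of each compared gene in the 7 lists of other eicosanoid pathway genes, with the list median as a black bar and dashed lines at 2-fold; the lowest and highest gene of each list are named. All 53 points lie between the dashed lines, and the list medians run from -0.03 to 0.34.

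In the authors' deposited table, the log2 fold was 0.25 for Ptgs2 and 0.26 for Ptges3, without the scaling used here, and the adjusted p was 1 for all 10 enzymes. Those p-values matched a test with an assumed coefficient of variation of 0.1 between replicates rather than a measured one.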

How the data were processed

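Each condition of the RBL-2H3 cells gave 1 RNA-seq library. Per the file headers, the deposited table gives the raw count of each gene name in both libraries, beside a log2 fold change and p-values (unadjusted and adjusted) from the authors. DESeq2 1.18.1, HISAT2 2.1.0, fastp 0.23.0 and build rn6 are listed, without roles, per the submitters' processing notes. Which counter, annotation and strand setting were used is not given in the sources used here. Of 16990 rows, 2077 repeated another exactly and were kept once. With a fixed dispersion of 0.01, edgeR's exact test on plain totals returned the authors' log2 folds and p-values, with largest deviations of 4.67e-08 and 3.47e-08.

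Log2 CPM differences were computed over the whole table with edgeR 4.0.16 (R 4.3.3, TMM scaling, prior of 0.5 counts), checked on simulated data. Intervals are exact Clopper-Pearson (95%) for the IgE share of a gene's reads, conditional odds-ratio intervals for differences of folds, and Poisson for CPM. A name needed 20 reads in total to be compared, and was called at 2-fold. With 1 library a group no test was made. The branches were Alox5, Alox5ap, Lta4h and Mgst2 against Ptgs1, Ptgs2, Hpgds, Ptges2 and Ptges3. Members and lists were chosen with earlier results of these data known. Named genes were the 10 members, the highest and lowest of each pathway list, any pathway gene past 2-fold, and Ltc4s, Ptges, Ptgds, Tbxas1, Ptgis, Alox12 and Alox15. No transcript lengths were at hand, so levels were not compared between genes. Alternatives were library totals, DESeq2 1.42.0 size factors, a prior of 5 counts, no minimum or 100 reads, a 1.5-fold rule and other branch members.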

Additional observations from a re-analysis of the deposited data

How the results depend on the processing

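All 30 alternative folds of the 10 enzymes (library totals, DESeq2 size factors or a prior of 5 counts) kept their sign and stayed within the gene's counting interval, moving by at most 0.03. The count of enzymes at least 2-fold apart was 0 under all 6 alternatives. That says little, since the highest log2 fold was 0.34 and all 10 enzymes already had at least 20 reads. The branch contrast of 0.166 did not depend on scaling, but was 0.0795 without Ptges3, 0.0916 with Ptgs1, Ptgs2 and Hpgds only, -0.0462 by medians of member folds and, in an alternative added after seeing the data, -0.0783 without Ptgs2 and Ptges3. The cyclooxygenase branch was -0.0288 by its median member, Ptgs1, whose interval included 0, against 0.180 by its sum. These follow from the genes left out or from the weight a sum gives to genes with many reads. All 35 alternative list medians stayed within the interval of the middle gene or, in lists of even size, of the 2 middle genes. Such a span can be wide, as from -0.71 to 0.96 for the other lipoxygenase branch enzymes, so staying inside it says little. Of the 35, 4 changed sign, among them the receptors, from 0.03 to -0.09 with a minimum of 100 reads. No paired analysis was possible because there is a single library per condition, which also leaves none to omit. Among the 10 enzymes, Mgst2 had the fewest reads and the widest interval, and the spread between cultures was not measured.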
